A study of Mus musculus with 48 samples.

Results

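The genes described here are the Hox cluster genes of the mouse: 36 of the 36854 genes in the count table, chosen by name because their Ensembl identifiers correspond to Hox genes, and not by any measured value. They comprise 10 genes of the HoxA cluster, 9 of HoxB, 9 of HoxC and 8 of HoxD. Hoxb1 and Hoxd4 are not analysed here. RNA was sequenced from 48 sarcomas of the mouse hind limb, each a whole tumour. The 32 primary tumours arose in p53FL/FL mice on the 129/SvJae background, 6 to 10 weeks old, whose gastrocnemius muscle was injected with an adenovirus carrying Cre recombinase, which deletes the floxed p53 gene where it enters cells, and then with 300 µg of 3-methylcholanthrene (MCA), a carcinogen. The 16 allografts grew from 50000 cells of the p53/MCA sarcoma line 402230, injected into the gastrocnemius of syngeneic mice. At about 150 mm3 each mouse received 200 µg of an antibody, either muDX400, a murine antibody against PD-1, or its isotype control, and the limb was irradiated with 0 or 20 Gy. Tumours were taken 3 days later. This gives 8 groups, of 4 allografts or 8 primary tumours each: 0 Gy with isotype, 0 Gy with anti-PD-1, 20 Gy with isotype, and 20 Gy with anti-PD-1. The groups share the loss of p53, the carcinogen and the site in the leg. Since every allograft comes from the same cell line, what belongs to that line and what belongs to transplantation cannot be told apart, and RNA of host cells is part of every library.

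Hox genes encode transcription factors that bind DNA through a homeodomain. They lie in 4 clusters, HoxA to HoxD, on different chromosomes, and genes at corresponding places in the clusters carry the same paralogue number. In the embryo, genes of low number are used towards the head and genes of high number towards the tail. In the limb bud the HoxA and HoxD genes of numbers 9 to 13 act in order from the shoulder or hip to the digits, with paralogues 9 and 10 in the upper segment, 11 in the lower leg or forearm and 13 in the hand or foot. Genes at the far end of HoxC are used in the hind limb rather than the forelimb. Adult fibroblasts and other connective tissue cells keep an expression pattern of Hox genes that reflects the body site they came from.

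The results turn mainly on 5 genes, and the 250 bases before the RefSeq start of 4 of them are printed below, 5′ to 3′ in the direction of transcription, from RefSeq on GRCm38.p6. Hoxd8, Hoxd10 and Hoxa11 are shown because their level differed between allografts and primary tumours, and Hoxa10 because it was high in both kinds. Capitals mark CG pairs, the sites of DNA methylation in mammals.
Hoxa10, chr6:52240855-52241104, minus strand: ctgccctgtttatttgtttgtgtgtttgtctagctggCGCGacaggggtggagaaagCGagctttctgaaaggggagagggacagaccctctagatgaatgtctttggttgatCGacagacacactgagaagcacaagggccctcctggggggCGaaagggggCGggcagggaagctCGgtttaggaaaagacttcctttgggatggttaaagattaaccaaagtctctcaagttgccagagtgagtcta
Hoxa11, chr6:52245811-52246060, minus strand: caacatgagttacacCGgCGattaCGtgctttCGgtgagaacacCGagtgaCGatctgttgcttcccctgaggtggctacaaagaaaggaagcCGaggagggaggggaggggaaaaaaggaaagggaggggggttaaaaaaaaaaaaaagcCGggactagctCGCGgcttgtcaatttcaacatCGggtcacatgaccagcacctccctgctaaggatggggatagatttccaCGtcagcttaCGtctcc
Hoxd8, chr2:74704365-74704614, plus strand: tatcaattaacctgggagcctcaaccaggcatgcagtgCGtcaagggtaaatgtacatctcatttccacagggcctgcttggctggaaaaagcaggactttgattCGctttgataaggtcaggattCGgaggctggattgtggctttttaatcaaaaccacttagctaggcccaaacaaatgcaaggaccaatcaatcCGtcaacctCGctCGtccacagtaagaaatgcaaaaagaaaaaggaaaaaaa
Hoxd10, chr2:74691641-74691890, plus strand: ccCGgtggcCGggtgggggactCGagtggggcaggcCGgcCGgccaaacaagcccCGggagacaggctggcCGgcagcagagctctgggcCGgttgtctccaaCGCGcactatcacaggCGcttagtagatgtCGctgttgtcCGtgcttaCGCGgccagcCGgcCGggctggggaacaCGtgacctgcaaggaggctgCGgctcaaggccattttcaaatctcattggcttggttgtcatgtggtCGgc
The stretch before Hoxd10 holds 20 CG pairs, that before Hoxa11 13, that before Hoxa10 7 and that before Hoxd8 6. The Hoxa11 stretch overlaps exons of Hoxa11os and Gm28032 on the other strand, and the Hoxd8 stretch lies inside the gene body of Hoxd3os1 on the other strand. The Hoxd10 stretch lies inside the gene body of Gm28309 on the same strand. Windows of 250 bases before to 50 after a start were found for 20 members (22 windows). These windows held a median of 17.5 CG pairs (4 to 45), against 7 over 32851 such windows of all genes. The letters TATAAA, read on both strands, occurred in 13.6% of the members' windows and in 13.6% of all windows. The letters CCAAT occurred in 59.1% of the members' windows and in 37.4% of all. TGATTNAT, the letters of a shared Hox and Pbx motif, occurred in 9.09% of the members' windows and in 3.22% of all, and TTTATGG, a motif of Cdx and posterior Hox proteins, in 0 of the members' windows and in 2.75% of all. No motif, as spelled, is contained in another. Such matches describe letters and not binding.

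The 3 members of paralogue group 10 are shown by their homeoboxes, the 180 bases that encode the homeodomain, because their sequences are alike while their levels are described separately in the results. The bases come from the GENCODE M21 transcripts (GRCm38), and capitals mark the 50 positions at which the 3 genes are not all the same.
Hoxa10 homeobox: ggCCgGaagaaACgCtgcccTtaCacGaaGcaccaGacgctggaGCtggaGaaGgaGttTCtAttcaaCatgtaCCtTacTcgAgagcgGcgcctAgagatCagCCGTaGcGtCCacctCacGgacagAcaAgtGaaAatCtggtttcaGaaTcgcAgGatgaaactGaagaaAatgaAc
Hoxc10 homeobox: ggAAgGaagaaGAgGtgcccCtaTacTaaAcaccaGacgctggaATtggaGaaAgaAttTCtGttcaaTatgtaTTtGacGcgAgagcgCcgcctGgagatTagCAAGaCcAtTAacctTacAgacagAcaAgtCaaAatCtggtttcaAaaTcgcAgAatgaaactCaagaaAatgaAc
Hoxd10 homeobox: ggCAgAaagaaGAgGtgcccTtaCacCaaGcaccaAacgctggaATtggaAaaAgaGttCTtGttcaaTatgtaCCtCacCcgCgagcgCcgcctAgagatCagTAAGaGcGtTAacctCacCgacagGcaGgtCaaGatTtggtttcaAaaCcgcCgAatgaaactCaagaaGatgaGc
Hoxa10 and Hoxc10 were identical at 80.6% of these bases, Hoxa10 and Hoxd10 at 78.9%, and Hoxc10 and Hoxd10 at 82.8%. Over the 36 pairs of members with the same paralogue number the identity ran from 67.2% to 93.9% (median 81.2%), and over all 630 pairs from 46.1% to 93.9%. Reads can still be placed, since only 8 of the 36 members had any stretch of 50 bases in their transcripts that also occurs in a gene elsewhere, at most 1.44% of such stretches (Hoxc9). Overlap within the clusters is wider: 8 members share exon sequence with another gene on the same strand, among them Hoxd3 (62.3% of its exon bases), and Hoxa11 shares 35% of its exon bases with its antisense partner Hoxa11os. Whether the counting used strand is not given in the sources used here, so reads of Hoxa11 and Hoxa11os, or of Hoxb3 and Hoxb3os, which overlaps 52.9% of Hoxb3, cannot be told apart with certainty.

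The libraries held 31810461 to 54008259 counts each. Levels are read counts scaled to a common total and adjusted between libraries by TMM (CPM). The deleted gene, read over its whole length, does not check the labels, since exons outside the floxed stretch are still counted and host cells carry it: Trp53 was at 25.7 to 45.8 CPM in allografts and 20.2 to 60.6 CPM in primary tumours. The sarcoma label was read against fibroblast and mesenchymal markers, whose 12 genes summed to 7130 to 29080 CPM in allografts and 12940 to 73550 CPM in primary tumours, with all 12 detected. Leukocyte markers (14 genes) summed to 1599 to 7630 CPM in allografts and 1395 to 7177 CPM in primary tumours, and skeletal muscle markers (12 genes) to 93.9 to 23210 and 17.3 to 92770 CPM. In bulk tissue, fewer cells of a type and less RNA per cell cannot be told apart. The p-values measure the spread between these tumours.

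Of the 36 members, 30 reached a mean of 1 CPM in at least 1 of the 8 groups. Hoxa2, Hoxb5, Hoxb13, Hoxd1, Hoxd3 and Hoxd12 did not. Hoxb13, a gene of the tail end and the prostate, had at most 1 count in any library, and Hoxd12 at most 3 counts. In allografts 22 to 25 members reached 1 CPM per tumour (median 23), and in primary tumours 12 to 26 (median 19.5). A level of 1 CPM in every allograft was reached by 19 members, and in every primary tumour by 5: Hoxa9, Hoxa10, Hoxb4, Hoxc6 and Hoxd8. A common set of Hox genes was thus on in all 48 tumours, and the set beyond it was nearly the same from allograft to allograft and varied among primary tumours.

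To compare genes, mean CPM was divided by the kilobases of exon not shared with another gene on the same strand. Over the full exon length Hoxd10 was at 6.66 and Hoxc10 at 5.11 in allografts, and Hoxc10 at 10.04 in primary tumours. Ranked by the former, the allografts were led by Hoxd8 (21.6), Hoxa11 (17.8), Hoxd9 (14.1), Hoxa10 (13.1) and Hoxd10 (7.07), followed by Hoxc6 (6.42), Hoxc10 (5.59) and Hoxa7 (4.99). The primary tumours were led by Hoxa10 (11.4), Hoxc10 (11), Hoxd8 (8.18), Hoxa11 (7.26) and Hoxc6 (5.96), followed by Hoxc11 (5.48), Hoxd9 (4.14) and Hoxc9 (3.46). The leading 5 were genes of numbers 8 to 11 in allografts, and in primary tumours the same except for Hoxc6. No order is claimed between neighbours in these lists, since single primary tumours of the leading genes spanned many-fold ranges.

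**Figure D1:**
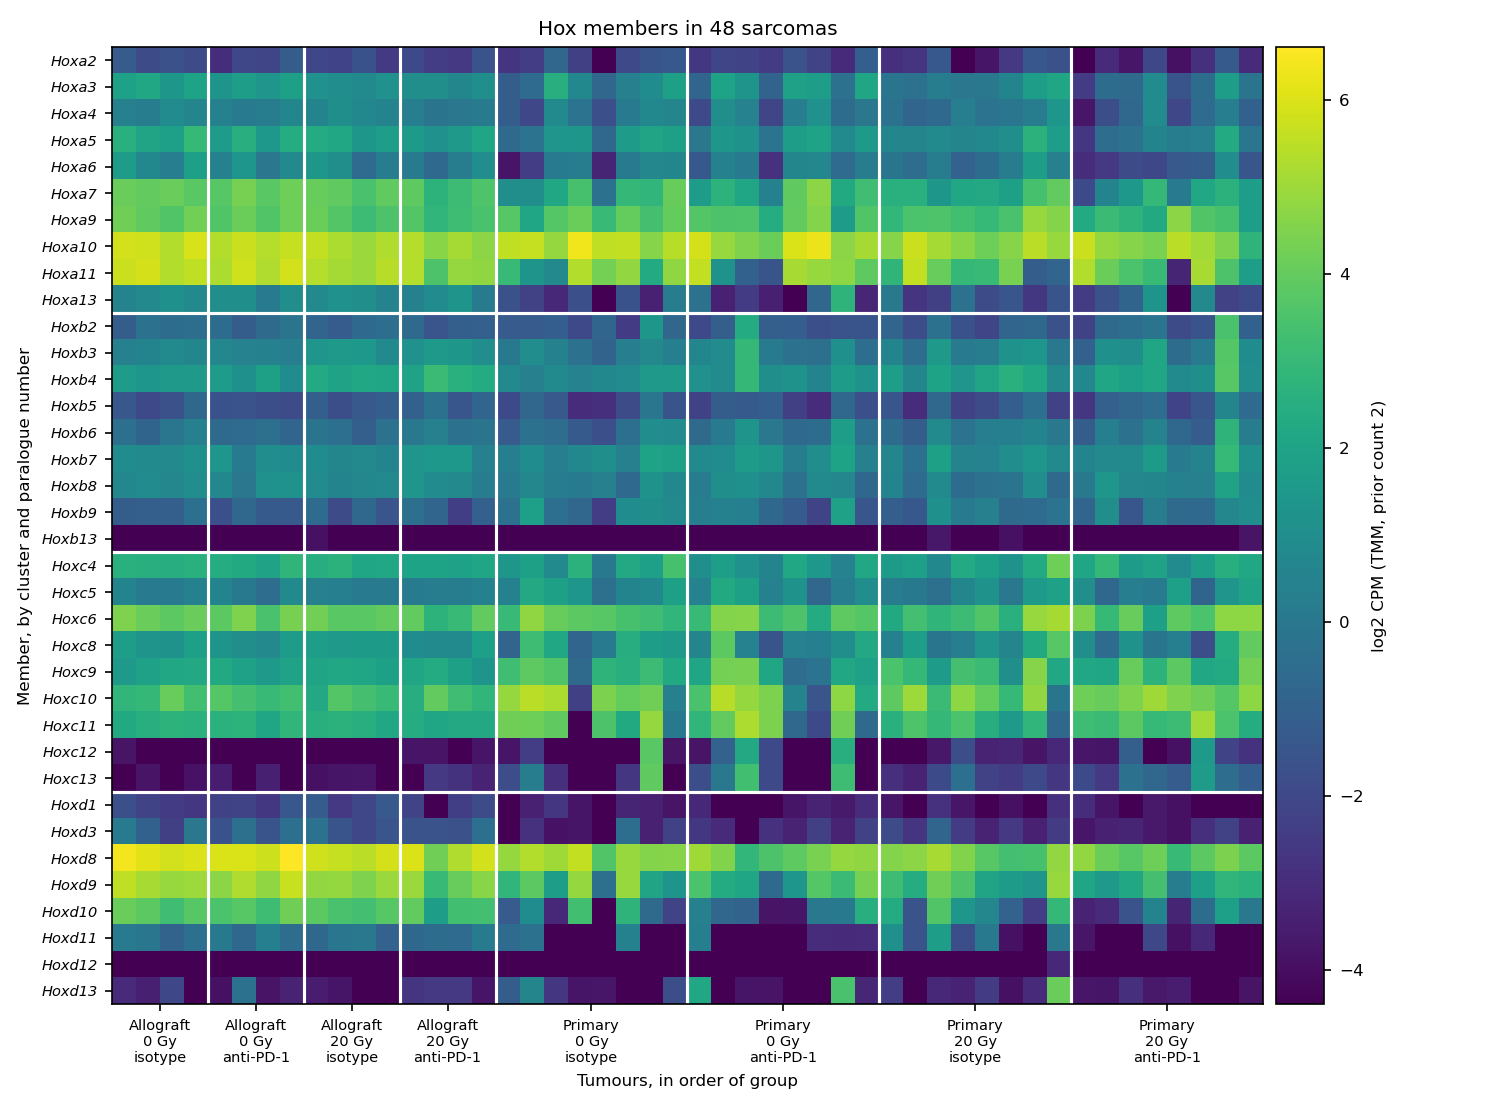
Level of the Hox cluster genes in every tumour. Columns are the 48 tumours by group and rows the members by cluster and paralogue number, with colour giving CPM on a log scale. The allograft columns look alike from tumour to tumour, while the primary columns differ in which stretch of HoxA, HoxC or HoxD is high.

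Allografts and primary tumours were compared by edgeR's quasi-likelihood test on the counts of all 48 tumours, as the average of the primary minus allograft difference over the 4 treatment arms, with Benjamini-Hochberg adjustment over 19327 genes. Of 34 members tested, 17 differed, 6 higher and 11 lower in primary tumours. Among all genes tested, 34.8% differed, 19.1% higher and 15.7% lower, so the members' share lies above the background. The members' median log2 fold change was -0.24, against 0.00 over all genes. By cluster, the count was 5 of 10 in HoxA, each lower in primary tumours (median log2 fold change -0.78), 1 of 8 in HoxB, higher (0.11), 4 of 9 in HoxC, each higher (0.95), and 7 of 7 in HoxD, of which 6 were lower and Hoxd13 higher (-1.80). By position, 2 of 6 members with numbers 1 to 3 differed, 5 of 14 with numbers 4 to 8 and 10 of 14 with numbers 9 to 13.

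Fibroblast markers differed between the same tumours, with 10 of 12 higher in primary tumours, as did leukocyte markers, with 5 of 14 lower. With the muscle marker sum as a covariate 16 of the 17 members were called again, and with the leukocyte sum 15. A fibroblast covariate was not fitted, and the part of fibroblast content in the differences was not tested. The tumours' identifiers in the labels also differ: they start with the digit 4 in 5 of 16 allografts and 30 of 32 primary tumours, and their meaning is not given. With that digit as a covariate, 10 of the 17 members were called again, each with the same sign. With only tumours whose identifier starts with 4, in the 3 arms with any, 3 of the 17 were called again. The shares of all genes called in these covariate and subset fits are not given here, so the counts are not set against a background.

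**Figure D2:**
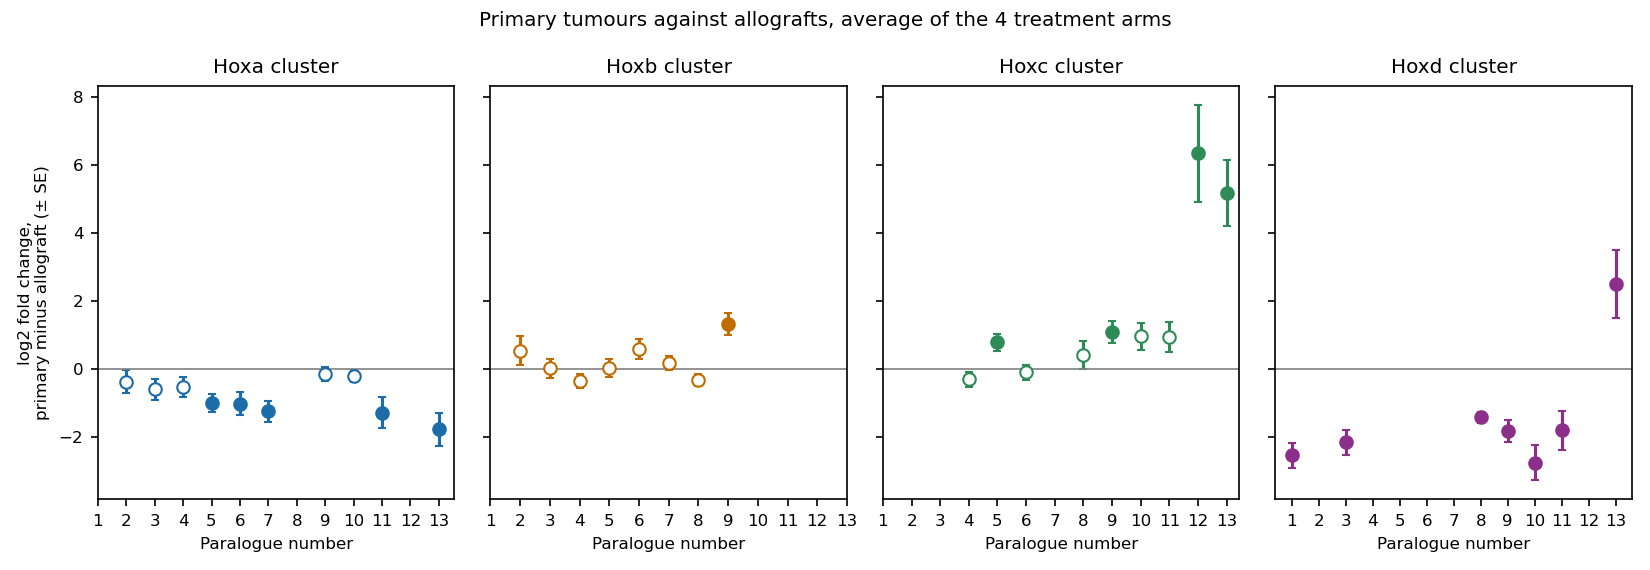
Log2 fold change between primary tumours and allografts, averaged over the 4 arms, for the 34 members tested, with 1 standard error to each side. Members are ordered by cluster and paralogue number, and filled points passed the test. The HoxD points lie below 0 except Hoxd13, the called HoxA points lie below 0, and the called HoxC points above it.

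In HoxD every member tested differed. Hoxd8 (chr2:74704615-74707933, plus strand, GRCm38, ENSMUSG00000027102), a gene of the middle of its cluster, was among the most abundant Hox genes per kilobase in both kinds of tumour. Its level was 85.4, 70.4, 58.2 and 65.8 CPM in the allografts given 0 Gy with isotype, 63.0, 63.4, 54.5 and 98 with anti-PD-1 alone, 56.2, 49.4, 44.6 and 59.2 after 20 Gy with isotype, and 65.3, 18.5, 39.7 and 57.4 after 20 Gy with anti-PD-1. The lowest, median and highest primary tumours were at 12.5, 29.98 and 48.9 CPM for 0 Gy with isotype, 7.33, 22.02 and 32.8 with anti-PD-1 alone, 10.04, 23.6 and 36.4 after 20 Gy with isotype, and 8.13, 15.95 and 28.4 after 20 Gy with anti-PD-1. In 3 of the 4 arms every allograft lay above every primary tumour, and at 20 Gy with anti-PD-1 the ranges met through allograft replicate 2 alone. Hoxd8 was lower in primary tumours by a log2 fold change of -1.41 (SE 0.16, adjusted p = 8.21e-09). It was also called in each of the 4 arms in this fit of all tumours.

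Hoxd10 (chr2:74691924-74695105, plus strand, ENSMUSG00000050368), which acts in the hind limb's motor neurons and skeleton, was on in every allograft and near 0 in many primary tumours. The allografts held 17.3, 14.4, 9.30 and 13.4 CPM at 0 Gy with isotype, 11.2, 13.7, 9.17 and 18.4 with anti-PD-1 alone, 14.3, 10.9, 9.89 and 13.5 after 20 Gy with isotype, and 15.5, 3.26, 9.63 and 9.86 after 20 Gy with anti-PD-1. Primary tumours ran from 0 to 9.75 CPM with a median of 0.493 at 0 Gy with isotype, from 0.0231 to 5.81 (median 0.754) with anti-PD-1 alone, from 0.141 to 12.5 (median 2.06) after 20 Gy with isotype, and from 0.0547 to 3.46 (median 0.474) after 20 Gy with anti-PD-1. A few primary tumours thus reached the allograft range, and most lay far below it. The log2 fold change was -2.74 (SE 0.52, adjusted p = 5.74e-05).

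Hoxd9, the neighbour between them, was at 8.02 to 51.2 CPM in allografts (median 29.9), and its lowest, median and highest primary values were 0.748, 5.55 and 30.5 CPM at 0 Gy with isotype and 1.11, 4.40 and 10.4 after 20 Gy with anti-PD-1. It differed by -1.80 (SE 0.33, adjusted p = 3.12e-05). Hoxd11, a gene of the lower leg segment, was low throughout, at 0.481 to 1.24 CPM in allografts and 0 to 3.42 CPM in primary tumours, of which 14 had no count and 3 lay above all allografts (log2 fold change -1.79, SE 0.58, adjusted p = 0.0137). Hoxd3 (-2.15, SE 0.35, adjusted p = 6.35e-06) and Hoxd1 (-2.52, SE 0.37, adjusted p = 1.02e-06) also fell, from low levels: Hoxd1 had at most 20 counts in an allograft and 5 in a primary tumour. Hoxd13, the gene of the digits, went the other way, with a log2 fold change of 2.52 (SE 1.002, adjusted p = 0.0465). That call rests on few tumours. Primary tumour replicate 8 of 20 Gy with isotype stood at 17.0 CPM and replicate 7 of 0 Gy with anti-PD-1 at 10.95, while no allograft exceeded 0.768. Without the former the change was 1.29 (adjusted p = 0.237), and leaving out any of 25 tumours of the 48 took the call away.

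**Figure D3:**
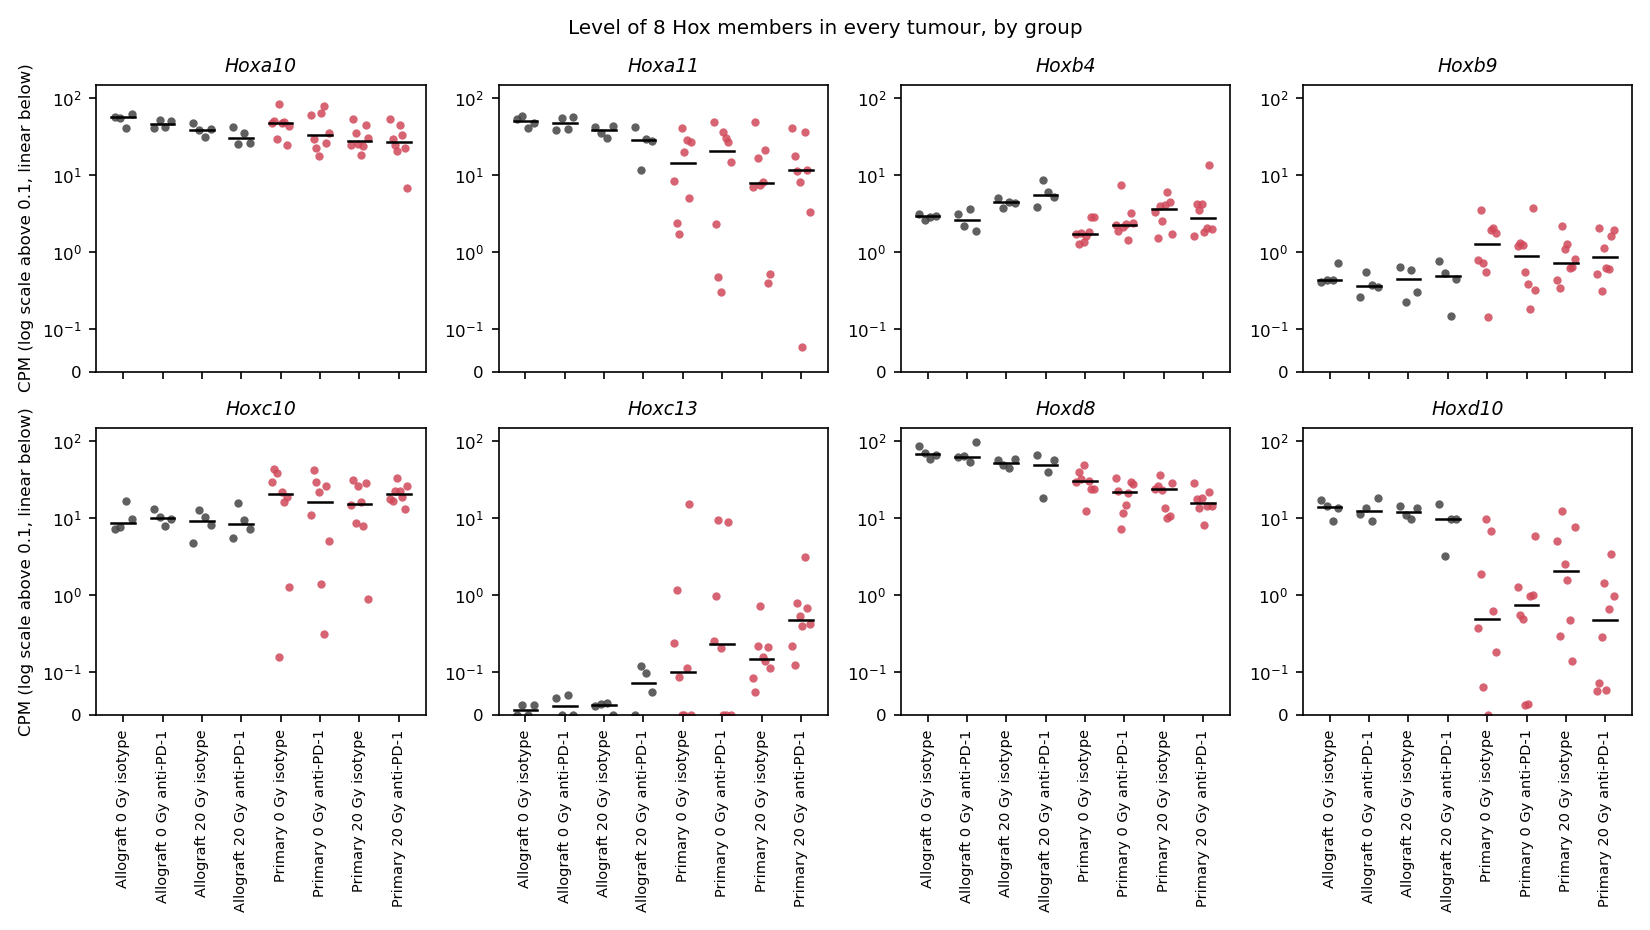
CPM of 8 members in every tumour, by group. Points are tumours, bars are group medians, and the axis is logarithmic above 0.1 CPM and linear below. Allograft points sit close together; for Hoxa11 and Hoxd10 the primary points run from near 0 into the allograft range, and for Hoxc10 they run both above and below it.

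In HoxA the members called were lower in primary tumours, and the 2 genes next to each other at the limb end, Hoxa10 and Hoxa11, gave different pictures. Hoxa10 (chr6:52231197-52240854, minus strand, ENSMUSG00000000938), a gene of the upper limb segment and the uterus, was high everywhere. It was at 57.5, 55.7, 41.0 and 61.2 CPM in the allografts of 0 Gy with isotype, 41.1, 52.6, 41.8 and 50.6 with anti-PD-1 alone, 48.05, 38.2, 31.2 and 39.2 after 20 Gy with isotype and 41.5, 25.1, 34.7 and 26.1 after 20 Gy with anti-PD-1. The lowest, median and highest primary tumours held 24.5, 47.3 and 82.6 CPM, 17.4, 32.6 and 78.1, 18.0, 27.8 and 53.5, and 6.82, 26.9 and 53.7 in the same order of arms. The groups overlapped in every arm, and no difference was called (log2 fold change -0.19, adjusted p = 0.411).

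Hoxa11 (chr6:52242106-52245810, minus strand, ENSMUSG00000038210), needed for the bones of the lower leg and forearm, lay close together among allografts and was scattered among primary tumours. The allografts were at 53.3, 59.2, 40.5 and 46.8 CPM for 0 Gy with isotype, 38.4, 55.8, 39.7 and 57.5 with anti-PD-1 alone, 42.0, 34.9, 30.6 and 42.9 after 20 Gy with isotype and 41.6, 11.6, 29.7 and 27.4 after 20 Gy with anti-PD-1. Primary tumours spanned 1.69 to 41.1 CPM (median 14.2), 0.300 to 48.2 (20.8), 0.400 to 48.6 (7.88) and 0.0586 to 40.3 (11.5) in the same order. In each arm at least 1 primary tumour reached the allograft range, and in 3 arms at least 1 primary tumour was below 1 CPM. The log2 fold change was -1.27 (SE 0.46, adjusted p = 0.0277). Its antisense partner Hoxa11os, whose counts may hold Hoxa11 reads, differed in the same direction (-1.51, adjusted p = 0.00352).

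Among the other HoxA genes, Hoxa7 fell by 1.23 on the log2 scale (SE 0.30, adjusted p = 0.00117): its allografts lay between 6.54 and 20.5 CPM, and the primary medians were 5.90, 5.72, 5.31 and 3.02 CPM in the 4 arms. Hoxa5, a gene of lung and trunk patterning, was at 2.22 to 7.91 CPM in allografts and 0.109 to 6.32 CPM in primary tumours (-0.97, SE 0.26, adjusted p = 0.00329). Hoxa6 changed by -1.01 (SE 0.34, adjusted p = 0.0188). Hoxa13, the digit gene of this cluster, was at 1.08 to 2.43 CPM in allografts, and 28 of 32 primary tumours lay below all of them, although 1 lay above, at 6.72 CPM (-1.75, SE 0.49, adjusted p = 0.00407). Hoxa9 ran from 7.12 to 19.3 CPM in allografts and from 3.20 to 29.9 CPM in primary tumours and was not called (-0.15, adjusted p = 0.626), nor were Hoxa3 (-0.59, adjusted p = 0.131) and Hoxa4 (-0.51, adjusted p = 0.17).

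In HoxC the genes from number 9 upward tended to stand higher in primary tumours, with the exceptions among single tumours named here. Hoxc9 was at 2.45 to 5.21 CPM in allografts, and its lowest, median and highest primary values were 0.625, 7.82 and 14.7 CPM at 0 Gy with isotype, 0.673, 4.31 and 20.4 with anti-PD-1 alone, 2.08, 8.17 and 24.2 after 20 Gy with isotype and 4.34, 5.74 and 19.6 after 20 Gy with anti-PD-1. Of the 32 primary tumours, 17 lay above all allografts and 4 below. The log2 fold change was 1.09 (SE 0.33, adjusted p = 0.00847), and 0.65 (adjusted p = 0.0935) with limma-voom.

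Hoxc10 (chr15:102966796-102971893, plus strand, ENSMUSG00000022484), used in the hind limb, stood at 7.18, 7.65, 16.6 and 9.68 CPM in the allografts of 0 Gy with isotype, 13.0, 10.4, 7.99 and 9.81 with anti-PD-1 alone, 4.69, 12.8, 10.4 and 8.13 after 20 Gy with isotype, and 5.51, 15.6, 9.39 and 7.18 after 20 Gy with anti-PD-1. The primary tumours ran from 0.156 to 44.0 CPM (median 20.3), from 0.312 to 42.7 (16.3), from 0.885 to 31.6 (15.4) and from 13.0 to 32.9 (20.7) in the same order. Most primary tumours lay above the allografts, 18 of 32 above all of them, but 5 lay below all of them. By edgeR's test the difference was not called (0.97, SE 0.40, adjusted p = 0.055). It was called by DESeq2's Wald test (adjusted p = 0.0233) and with any of 9 single tumours removed. Hoxc11 behaved alike, with 19 primary tumours above and 7 below the allograft range of 4.12 to 7.28 CPM, and was not called (0.95, SE 0.44, adjusted p = 0.0907).

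The last genes of the cluster were nearly silent in the allografts. Hoxc12 had no count in 12 of 16 allografts and at most 1 count in the others, while primary tumours reached 562 counts, with 10 at 0. Hoxc13, a gene of hair and nail, had at most 5 counts in an allograft and reached 15.3 CPM in a primary tumour, with no count in 6 tumours of each kind. Both were called higher in primary tumours (Hoxc12 6.34, SE 1.42, adjusted p = 0.0006; Hoxc13 5.18, SE 0.98, adjusted p = 5.44e-05), and their fitted fold changes depend on how counts near 0 are treated. A level of 1 CPM was reached by 4 of 32 primary tumours for Hoxc12 and by 5 for Hoxc13. Without primary replicate 7 of 0 Gy with isotype the changes were 4.88 and 4.38, still called, and with limma-voom 2.39 and 2.98. Hoxc5 was higher as well, at 0.503 to 4.90 CPM in primary tumours against 0.691 to 1.77 CPM (0.79, SE 0.25, adjusted p = 0.0128). It shares 5.37% of its exon bases with a neighbour on the same strand. Hoxc6 ran from 6.64 to 22.2 CPM there and from 3.50 to 34.7 CPM in primary tumours, with no difference called (-0.09, adjusted p = 0.795).

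HoxB had the fewest calls. Hoxb9 was the gene called, at 0.146 to 0.753 CPM in allografts and at primary medians of 1.27, 0.873, 0.726 and 0.869 CPM in the 4 arms, with 17 of 32 primary tumours above all allografts and 1 below (1.33, SE 0.33, adjusted p = 0.00127). Hoxb4, a gene known from blood stem cells and the only HoxB member above 1 CPM in every tumour, was at 1.88 to 8.55 CPM in allografts and 1.29 to 13.3 CPM in primary tumours and was not called (-0.35, adjusted p = 0.196). The remaining HoxB members tested had changes between -0.30 (Hoxb8) and 0.59 (Hoxb6, adjusted p = 0.116). For Hoxb2, Hoxb3, Hoxb4 and Hoxb5 the sign of the change was not stable between fits.

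The same comparison within each arm, of 4 allografts and 8 primary tumours, called 3, 6, 2 and 5 members for 0 Gy with isotype, 0 Gy with anti-PD-1, 20 Gy with isotype and 20 Gy with anti-PD-1, each against 10.3%, 7.39%, 4.89% and 6.77% of all genes. As shares of the 34 members tested, the isotype arms are near these backgrounds and the anti-PD-1 arms above them in this fit. With limma-voom the isotype arms had 10 and 5 members called at 0 and 20 Gy. The shares of all genes called by limma-voom are not given here, so these 2 counts are not set against a background. Without the filter on low counts each anti-PD-1 arm had 2 members called, near its background. At 20 Gy with anti-PD-1 the count was 1 with the leukocyte covariate, and 0 in an edgeR fit of only those 2 groups, where Hoxd8 had -1.41 (adjusted p = 0.105). The arms share no tumours with each other, while the average uses all of them. Hoxd8 was called in each, with changes of -1.21 (adjusted p = 0.0144), -1.74 (0.000657), -1.28 (0.016) and -1.41 (0.00986). Hoxd10 was called in both anti-PD-1 arms (-3.36 and -3.44), Hoxd9 in 0 Gy with anti-PD-1 (-2.13) and Hoxd11 in 20 Gy with anti-PD-1 (-4.24). Hoxd3 passed in 3 arms and Hoxd1 in 3. Hoxc13 passed in both unirradiated arms (7.20 and 6.69). Of the 17 members called in the average, 15 had the same sign in the 4 arms, the exceptions being Hoxd11 and Hoxd13, against 24 of all 34.

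These small groups lean on single allografts. The Hoxd8 call was lost at 0 Gy with isotype without allograft replicate 1 (-1.10, adjusted p = 0.0613), at 20 Gy with isotype without allograft replicate 4 (-1.22, adjusted p = 0.0713) and at 20 Gy with anti-PD-1 without allograft replicate 1 (-1.19, adjusted p = 0.0521). The count of members called at 0 Gy with isotype was 0 without allograft replicate 1 and 1 without replicate 2 or 4. With anti-PD-1 alone it was 2 without replicate 1, 2 or 3 and 1 without replicate 4. After 20 Gy with isotype it was 1 without replicate 1 and 0 without replicate 4, and after 20 Gy with anti-PD-1 it was 1, 3, 1 and 2 without replicates 1 to 4. Whether the primary minus allograft difference itself changed with dose was tested as an interaction: 0 members passed by edgeR's quasi-likelihood test, averaged over antibodies, with 0 at an unadjusted p below 0.05 and 0 by DESeq2 or limma-voom, and 5 of all genes (0.0259%) passed.

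The spread of Hox levels between tumours was wide among primary tumours and narrow among allografts. It was measured as the standard deviation of log2 CPM (prior count 2) over tumours with the group means removed. The members' median was 0.36 in allografts, close to the 0.37 of all 19327 genes, and 1.12 in primary tumours against 0.50 for all genes. The spread was larger in primary tumours for 33 of 34 members, with Hoxd1 the exception, and for 82.5% of all genes. Of the 34 members, 16 were above 90% of genes among primary tumours and 1 among allografts. These counts depend on the prior count: they were 11 and 2 with 0.5, and 16 and 0 with 5. The spread was larger in primary tumours for 34 members with 0.5 and for 32 with 5. The difference between the 2 kinds had a median of 0.71 over members and 0.10 over all genes. The groups differ in size, and allografts of the same line share a genome while primary tumours do not.

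Hoxa11 was the most variable member among primary tumours. It had a standard deviation of 0.39 in allografts and 2.44 in primary tumours, which was above 99.3% of genes. Hoxd10 came next, with 0.50 and 2.26 (99.02%), ahead of the low genes Hoxc12 (2.15 in primary tumours), Hoxc13 (2.06) and Hoxd13 (2.03). Hoxc11 had 0.22 in allografts and 2.03 in primary tumours (98.5%). Hoxc10 had 0.52 in allografts and 1.81 in primary tumours (97.6%). The abundant genes Hoxa10 (0.26 and 0.68, 67.4%) and Hoxd8 (0.40 and 0.64, 64.2%) were far closer to the middle of all genes. Hoxd13 was the most variable member in allografts, at 0.93.

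**Figure D4:**
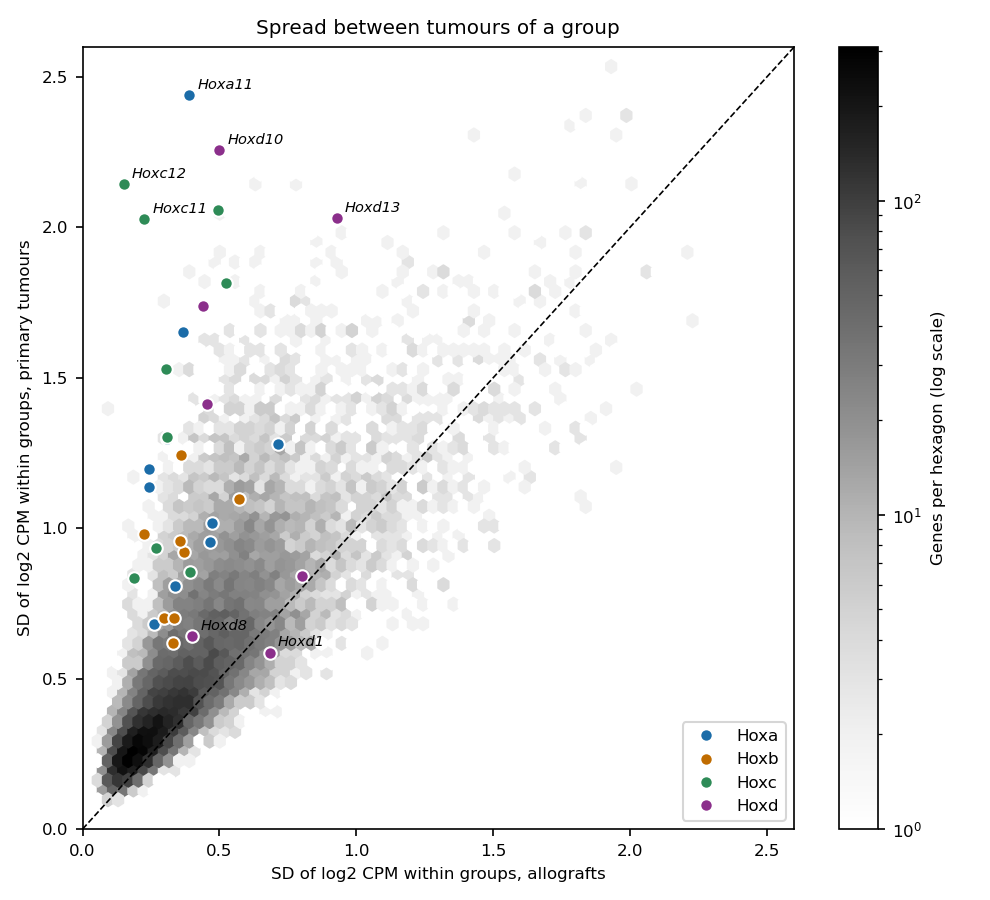
Standard deviation of log2 CPM between allografts (horizontal axis) and between primary tumours (vertical axis), group means removed. Shading counts all 19327 genes tested and points are the 34 members by cluster, with the line of equality drawn. Nearly all members lie above the line, and many lie well above the bulk of genes.

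Within the primary tumours, Hox genes that sit next to each other varied together. Correlations are given as a description over the 32 primary tumours, for the 30 members that reached 1 CPM in a group, on log2 CPM with group means removed; values of a tumour share its library, its depth and its mix of cells. The median Pearson r was 0.75 for the 24 pairs adjacent by paralogue number in a cluster (0.35 to 0.92, 18 above 0.5). It was 0.34 for the 79 other pairs of the same cluster (29 above 0.5) and 0.07 for the 332 pairs from different clusters (4 above 0.5). Members of the same paralogue number on different chromosomes, 27 pairs, had a median of 0.16, with 0 pairs above 0.5. By Spearman's rank correlation the adjacent pairs had a median of 0.72, and in the 16 unirradiated primary tumours alone a median r of 0.73. In those 16 tumours 26 of the 332 pairs from different clusters were above 0.5, up to 0.80, as was 1 pair of the same paralogue number.

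The tightest neighbours were Hoxc12 with Hoxc13 (0.92), Hoxc10 with Hoxc11 (0.92), Hoxa5 with Hoxa6 (0.90), Hoxd9 with Hoxd10 (0.89), Hoxa3 with Hoxa4 (0.88), Hoxb6 with Hoxb7 (0.85) and Hoxb3 with Hoxb4 (0.84). The loosest were Hoxb8 with Hoxb9 (0.35), Hoxa10 with Hoxa11 (0.36), Hoxc4 with Hoxc5 (0.38), Hoxa11 with Hoxa13 (0.40), Hoxa7 with Hoxa9 (0.42) and Hoxc8 with Hoxc9 (0.42). Over all pairs of a cluster the median was 0.70 in HoxB, 0.54 in HoxD, 0.33 in HoxA and 0.29 in HoxC. Without replicate 7 of 20 Gy with anti-PD-1, left out after its high HoxB levels were seen, the medians were 0.60 in HoxB and 0.56 in HoxD, and in the 16 unirradiated tumours 0.54 and 0.49. Hoxb3 also had an r of 0.83 with Adgrf5, a receptor of endothelial and lung cells. Hoxc4 had an r of -0.55 with Hoxc11 and -0.54 with Hoxc10, and of -0.11 with Hoxc12 and -0.22 with Hoxc13. Across clusters the most negative pair was Hoxa11 with Hoxc9 (-0.60), and Hoxa7 with Hoxc10 had -0.51.

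**Figure D5:**
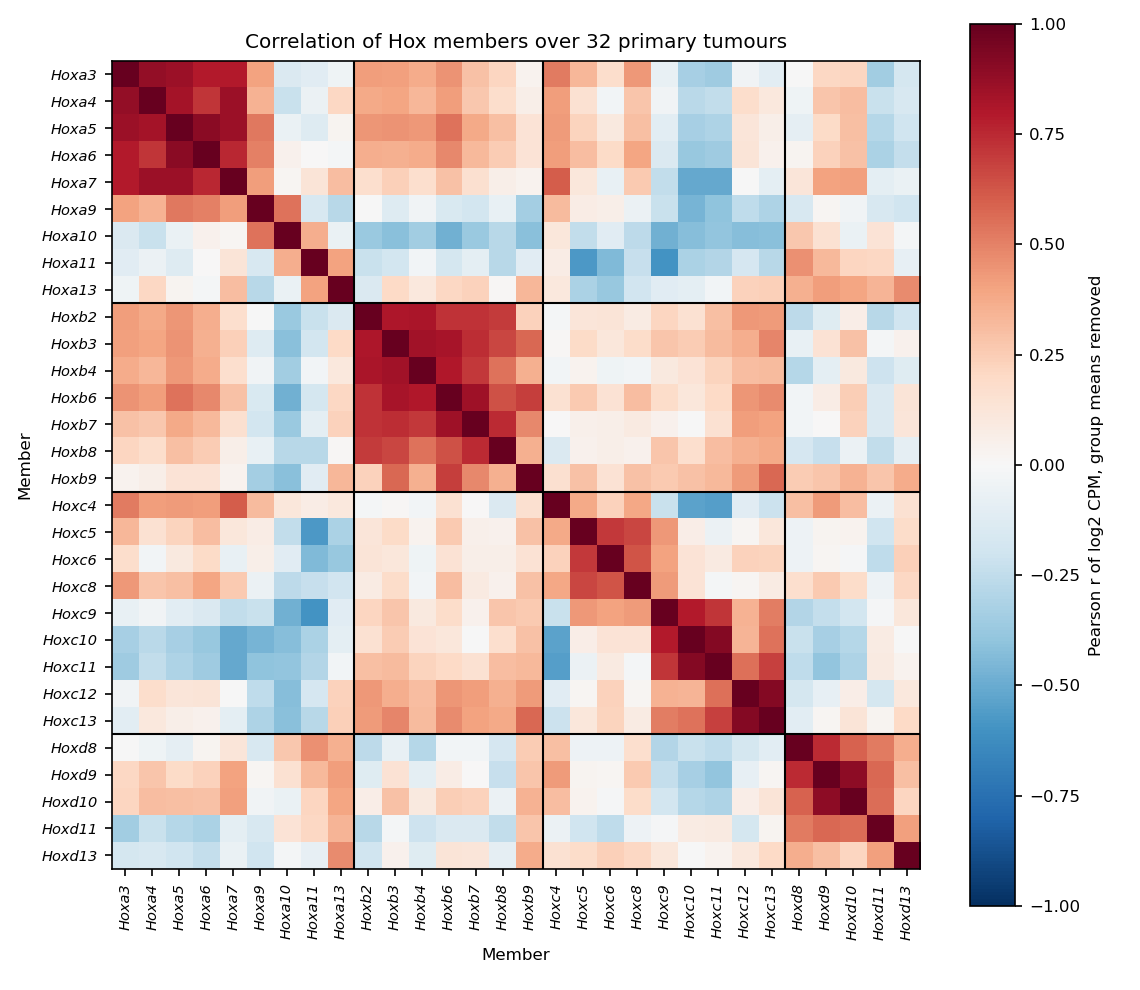
Pearson r between members over the 32 primary tumours, from log2 CPM with group means removed, ordered by cluster and paralogue number. Blocks along the diagonal are neighbouring genes of a cluster, and the squares between clusters are mostly near 0.

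Among 19326 other genes tested, the gene most like a member was a Hox gene of the same cluster for 17 of the 30 members, and a Hox gene of the same cluster stood in the first 10 for 22. For Hoxc10 the 3 leading genes were Hoxc11 (0.92), Hoxc9 (0.79) and the antisense RNA Hotair of the same cluster (0.74). For Hoxd8 they were Hoxd3os1 (0.76), Hoxd9 (0.75) and Haglr (0.64), the first and the last being non-coding genes of HoxD. Hoxb4 was led by Hoxb3 (0.84), Mgat4a (0.82) and Hoxb2 (0.82). For Hoxa10 the leading genes included Zfp846 and Mzt1, each at 0.66, and its best HoxA partner, Hoxa9 at 0.55, came at rank 71. The best partner in the cluster came later still for Hoxa9 (rank 217), Hoxa11 (550), Hoxa13 (506), Hoxc4 (650) and Hoxd13 (303). Hoxa11 and Hoxa11os had 0.97, with the shared exon bases given above.

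Single primary tumours carried their own Hox pattern. The highest values of the 30 members among primary tumours fell in 15 tumours. Replicate 7 of 20 Gy with anti-PD-1 was highest for 6 HoxB genes, Hoxb2 (11 CPM), Hoxb3 (13.2), Hoxb4 (13.3), Hoxb6 (6.84), Hoxb7 (7.75) and Hoxb8 (3.82). The same tumour had the highest sum of the 10 endothelial markers, 980.9 CPM, where primary tumours ran from 214.7 to 980.9 CPM (median 451.8) and allografts from 347.6 to 627.7 CPM, with all 10 detected. The part of endothelial content in the HoxB levels was not tested. Replicate 8 of 20 Gy with isotype was highest for Hoxc4 (18.3 CPM) and Hoxd13 (17.0), and at the same time among the lowest for Hoxc10 (0.885) and Hoxc11 (0.567). Replicate 7 of 0 Gy with isotype was highest for Hoxc12 (13.8 CPM) and Hoxc13 (15.3). Its epidermal markers, from a list that includes the keratin genes Krt5 and Krt14, summed to 9.93 CPM, within the 5.29 to 23.02 CPM of primary tumours (median 13.25). Replicate 4 of the same group was highest for Hoxa10 (82.6 CPM) and Hoxd8 (48.9), with Hoxc10 at 0.156 and no count of Hoxc11. Replicate 7 of 20 Gy with isotype was highest for Hoxa5, Hoxa6 and Hoxa9 and also for Hoxc9 (24.2 CPM). High HoxA and high HoxC levels were thus found apart in some tumours and together in others.

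Radiation was compared within each kind of tumour. In allografts, 20 Gy against 0 Gy, averaged over antibodies, changed 4 of 31 members by edgeR's quasi-likelihood test, or 12.9%, against 13.7% of all genes, so the members' share is that of the background. Hoxa3 fell by 0.73 on the log2 scale (SE 0.15, adjusted p = 0.00465), from 2.44 to 4.42 CPM in the 8 unirradiated allografts to 1.53 to 2.23 CPM in the 8 irradiated ones, without overlap. Hoxa10 fell by 0.49 (SE 0.13, adjusted p = 0.0192), and its ranges overlapped. Hoxb3 rose by 0.81 (SE 0.15, adjusted p = 0.00171), from 1.19 to 1.73 CPM to 1.77 to 2.87 CPM, without overlap. Hoxb4 rose by 0.89 (SE 0.18, adjusted p = 0.00351), from 1.88 to 3.64 CPM to 3.78 to 8.55 CPM, also without overlap. Hoxb3 and Hoxb4 are neighbours in HoxB and are used in blood cells as well.

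Leukocyte markers moved with dose in these allografts: 7 of 14 were higher after 20 Gy, and their sum ran from 1599 to 3866 CPM at 0 Gy and from 3158 to 7630 CPM at 20 Gy. With that sum as a covariate 0 of the 4 members passed by edgeR's test, with changes of -0.40 for Hoxa3, -0.25 for Hoxa10, 0.62 for Hoxb3 and 0.33 for Hoxb4 (adjusted p = 0.249, 0.425, 0.104 and 0.29). The leukocyte sum rose with dose, so this fit cannot tell dose and leukocyte content apart. The part of leukocyte content in these changes was not tested. Replicate 2 of 20 Gy with anti-PD-1, which had the highest leukocyte sum, had the lowest Hoxd8 and Hoxa11 values of the allografts. Without it the 4 members remained called. In a fit of all 48 tumours together, 0 of the 4 passed, with changes of -0.74, -0.50, 0.79 and 0.87 in the same order and larger standard errors (0.50 in place of 0.15 for Hoxa3).

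In primary tumours the same contrast called 1 of 30 members against 26.3% of all genes, so the members' share lies below the background. The count was 4 in the fit of all 48 tumours, and 0 with the identifier digit or leukocytes as a covariate. That member was Hoxc13 (-2.48, SE 0.93, adjusted p = 0.0477), whose group medians did not follow the fitted change and which was not called with DESeq2's size factors. The 4 members called in allografts had primary changes of -0.69 for Hoxa3 (adjusted p = 0.234), -0.51 for Hoxa10 (0.0978), 0.55 for Hoxb3 (0.314) and 0.69 for Hoxb4 (0.062), each with the sign seen in allografts. Members spread more between primary tumours than all genes did (median standard deviation 1.12 against 0.50), which limits what the test can call. The part of this spread in the low share was not tested. Of the muscle markers 8 of 12, and of the leukocyte markers 7 of 14, were higher after 20 Gy in primary tumours. The median muscle sums did not follow: they were 2020 CPM with isotype and 1603 with anti-PD-1 at 0 Gy, and 1633 and 2162 at 20 Gy. Single irradiated tumours reached 51960 CPM with isotype and 92770 CPM with anti-PD-1.

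Anti-PD-1 alone, against isotype at 0 Gy, changed 0 of 31 members in allografts and 0 of 30 in primary tumours by edgeR's test, with 0 at an unadjusted p below 0.05 in both and 0 by DESeq2, and 0% of all genes passed by edgeR. After 20 Gy the counts were again 0 by both tools. At an unadjusted p below 0.05 by edgeR stood 2 members in allografts and 4 in primary tumours, 6.45% and 13.3% of those tested. Among all genes these shares were 3.84% and 8.12%. The combination of 20 Gy and anti-PD-1 against 0 Gy with isotype called the same 4 members in allografts, against 9.66% of all genes: Hoxa3 (-0.94), Hoxa10 (-0.76), Hoxb3 (0.71) and Hoxb4 (1.02). It shares tumours with the dose comparison. Of the leukocyte markers 7 of 14 were higher here too, and with their sum as a covariate 0 of the 4 members passed. Here too treatment and leukocyte content cannot be told apart by such a fit. The count was 1 without replicate 2 of 20 Gy with anti-PD-1 and 2 without replicate 1, 2 or 4 of 0 Gy with isotype. In primary tumours the combination called 0 of 30 by edgeR, against 13.8% of all genes, and 2 by DESeq2's Wald test. At an unadjusted p below 0.05 by edgeR stood 4 members, or 13.3%, against 29.4% of all genes.

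Genes that act with or around the clusters were read in the comparison of primary tumours with allografts. Of 8 non-coding genes of the clusters 5 differed, 2 of them higher (median log2 fold change -0.51). Haglr, in HoxD, fell by 2.18 (adjusted p = 6.12e-06) and Hoxd3os1 by 1.05 (adjusted p = 0.000302), as their neighbours did. Hotair, in HoxC, was higher (1.502, adjusted p = 0.0298), as was Gm53 (4.56, adjusted p = 0.000209). Of 16 genes flanking the clusters 5 differed, 2 higher (median -0.06). Skap2 and Snx10, beyond one end of HoxA, fell by 0.46 and 0.50, and Mtx2 and Lnpk, beside HoxD, had -0.35 and 0.23. These changes beside the clusters were smaller than those of the called members inside them.

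TALE homeodomain proteins, the DNA-binding partners of Hox proteins, gave 5 of 11, with 1 higher (median 0.03): Meis1 at 1.12, and Meis2 (-0.55), Meis3 (-0.95), Tgif1 (-0.40) and Pbx2 (-0.14) lower. Polycomb genes, whose products keep Hox clusters silent, gave 8 of 19, with 1 higher (median -0.13). Bmi1 fell by 0.29, Mtf2 by 0.27 and Suz12 by 0.26. Trithorax and insulator genes, which keep clusters active or divided, gave 3 of 16, with Ash2l at 0.27 and Ctcf at -0.21 (median 0.02).

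Upstream of the clusters, Cdx and retinoic acid genes gave 5 of 16, with 2 higher (median -0.01). Among them were Stra6, the vitamin A uptake receptor (-4.06, adjusted p = 1.42e-08), and Aldh1a3, an enzyme that makes retinoic acid (1.94). Of 37 other limb patterning genes 20 differed, 9 higher (median 0.04), including Tbx15 (1.45, adjusted p = 5.70e-11), Alx1 (-4.43, adjusted p = 7.21e-11), Emx2 (3.67, adjusted p = 1.42e-08) and Msx1 (-2.21, adjusted p = 1.54e-07). Pitx1, which sets hind limb identity, fell by 0.83 (adjusted p = 0.0139), and its target Tbx4 was at 0.80 (adjusted p = 0.183). All these counts are read against the background of 34.8%.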

How the data were processed

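Bulk RNA-seq of 48 tumours was used. Poly(A) RNA went into stranded KAPA libraries, per the labels' protocols. The authors deposited raw read counts per gene; trimming with Trimmomatic 0.36, alignment with STAR to mm10 and counting with HTSeq are named in the submitters' processing notes. The annotation, the strand setting and the treatment of overlapping genes are not given in the sources used here, and unsettled strand or overlap handling can move reads between neighbouring Hox genes and their antisense partners. Of 36854 Ensembl identifiers, 36796 were named from GENCODE M21. Counts were scaled by TMM and tested in R 4.3.3 with edgeR 4.0.16 (quasi-likelihood F test, filterByExpr by group, Benjamini-Hochberg adjustment over all genes tested, called at an adjusted p below 0.05). The 48 tumours were fitted together for primary tumours against allografts (19327 genes), and each kind separately for dose and antibody (17746 and 17770 genes). No replicate number pairs tumours. Alternatives were DESeq2 1.42.0 (size factors and Wald test), voom in limma 3.58.1 with weights by kind, no filter, covariates for identifier digit, muscle, leukocytes and Xist, other sets of tumours, and each tumour (the 4-arm average) or each allograft (other comparisons that use allografts) left out. The test was checked on simulated counts. Figures used matplotlib 3.10.9.

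The members were taken by gene name, without a threshold on any value, but the Hox genes as a subject and the gene lists were chosen with earlier results of these data known. One alternative, the correlations without a primary tumour high in HoxB, was added after seeing the data. Members whose mean reached 1 CPM in any group are described; those with the highest mean in a cluster or the smallest p get full statistics, as do up to 4 called genes of each other list and, for the member with the highest mean of each cluster, the 3 genes most like it; some genes that this rule names are not reported here. Tbx4, Pitx1, Lnpk, Meis2 and Adgrf5 were named after their values were seen. Library totals of 31810461 to 54008259 counts set the precision of low levels.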

Additional observations from a re-analysis of the deposited data

Results flagged for a closer look

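In groups of 4 to 8 tumours, a tumour was singled out when its gap to the nearest other, on log2 CPM, took up more of the group's range than Dixon's 95% critical value. This happened in 25 of 240 groups of 30 members, where chance flags about 1 in 20 groups. The groups of neighbouring genes share tumours and are not independent.

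Among primary tumours of 20 Gy with anti-PD-1, replicate 7 stood at 11 CPM for Hoxb2 (the others at 0.164 to 0.843), at 13.3 for Hoxb4 (1.61 to 4.25), at 6.84 for Hoxb6 (0.388 to 1.42) and at 1.98 for Hoxa6 (0.0821 to 0.411). In the same group, replicate 8 was low for Hoxa10 at 6.82 CPM (20.8 to 53.7) and replicate 5 for Hoxa11 at 0.0586 (3.32 to 40.3). At 0 Gy with anti-PD-1, primary replicate 3 was high for Hoxb2 at 5.18 CPM (0.206 to 0.439) and Hoxb3 at 7.67 (0.711 to 2.17), and replicate 1 for Hoxd11 at 1.24 (0 to 0.079).

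Replicate 8 of the primary tumours given 20 Gy with isotype was high for Hoxc4 at 18.3 CPM (1.62 to 5.05) and Hoxd13 at 17.0 (0 to 0.144), and low for Hoxc10 at 0.885 (7.97 to 31.6) and Hoxc11 at 0.567 (2.88 to 11.8). At 0 Gy with isotype, primary replicate 7 was high for Hoxb2 at 2.62 CPM (0.132 to 0.545) and Hoxc12 at 13.8 (0 to 0.143), and replicate 4 was low for Hoxc9 at 0.625 (4.82 to 14.7).

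Among allografts the gaps were small in absolute terms. At 20 Gy with anti-PD-1, replicate 3 was low for Hoxa3 at 1.53 CPM (2.00 to 2.09) and for Hoxc12 at 0 (0.0241 to 0.0261), and replicate 4 was low for Hoxb7 at 1.28 (2.47 to 2.73) and Hoxd13 at 0.0261 (0.104 to 0.122) and high for Hoxc8 at 3.47 (1.78 to 1.92). At 0 Gy with isotype, replicate 4 was high for Hoxb9 at 0.717 CPM (0.405 to 0.435), and replicate 1 for Hoxc12 at 0.0239, with the others at 0. At 0 Gy with anti-PD-1, replicate 3 was low for Hoxa13 at 1.08 CPM (2.02 to 2.11) and replicate 2 high for Hoxd13 at 0.768 (0.02 to 0.0507).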

How the results depend on the processing

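The 17 members called between primary tumours and allografts kept their sign under every alternative run. With any of the 48 tumours left out the count ran from 16 to 19. It was 10 with the identifier digit as a covariate and 3 when only tumours whose identifier starts with 4 were used, in the 3 arms with any. The cause was not tested, and the latter fit has fewer tumours. The shares of all genes called in these fits are not given here. The count over the other gene lists, 51, was 30 and 8 under the same alternatives and 43 to 57 with one tumour left out. For 0 Gy with isotype the count was 10 with limma-voom and 1 with the digit covariate (0 to 3 with an allograft left out, as in the ranges that follow); for 0 Gy with anti-PD-1, 2 without the filter (1 to 6); for 20 Gy with isotype, 5 with limma-voom (0 to 2); for 20 Gy with anti-PD-1, 2 without the filter, 8 with limma-voom, 3 with the digit, 1 with leukocytes and 0 with only its 2 groups (1 to 5). Interactions stayed at 0 to 0.

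For dose in allografts the count was 0 with the leukocyte covariate and 0 in the fit of all 48 tumours (4 to 5). For the combination in allografts it was 7 with DESeq2's Wald test, 2 without the filter and 0 with leukocytes (1 to 6). For dose in primary tumours it was 0 with DESeq2's size factors, the digit or leukocytes, and 4 in the fit of all 48. For the combination in primary tumours it was 1 with DESeq2's size factors, 2 with its Wald test and 2 with Xist. Anti-PD-1 in allografts stayed at 0 to 0.

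Signs turned for members that were not called: Hoxb2 (-0.23 with limma-voom), Hoxb3 (-0.34 with limma-voom, -0.04 with the digit, -0.01 with leukocytes and -0.01 with Xist; -0.17 to 0.08 with one tumour left out), Hoxb4 (0.09 with identifiers starting with 4), Hoxb5 (-0.22 with limma-voom; -0.06 to 0.13) and Hoxc8 (-0.29 with limma-voom). The median correlation of adjacent members was 0.71 without primary replicate 7 of 20 Gy with anti-PD-1. No paired analysis was possible because the labels give no replicate numbers that groups share. Counts near 0 limit Hoxc12, Hoxc13, Hoxd1, Hoxd11 and Hoxd13.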
